A study of Mus musculus with 12 samples.

Results

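Peroxiredoxins and the thioredoxins that recharge them were followed by RNA sequencing in mouse oocytes from females kept on a high-fat diet, HFD, with females on a control diet, CD, as the comparison. The members were chosen by name as the peroxiredoxin genes Prdx1 to Prdx6, the thioredoxins Txn1 and Txn2 and the thioredoxin reductases Txnrd1 and Txnrd2. All 10 were found among the 24062 genes of the count table. HFD females ate a high-calorie, modified form of the feed D12492 for 9 weeks, and CD females are labelled with D12492 itself, so the content of the control feed is uncertain. All were fed CD while mating with vasectomized males, and oocytes were taken on day 0.5 after mating. Each library came from a pool of 4 oocytes, with 6 HFD pools and 6 CD pools from cohorts of 6 females. The labels give no strain, age or link between pool and female, so p-values measure the spread between pools, which may be technical.

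Peroxiredoxins reduce hydrogen peroxide and organic peroxides with a cysteine that the peroxide oxidizes. In Prdx1 to Prdx4 the oxidized cysteine forms a disulfide with another subunit, in Prdx5 it forms a disulfide within the same protein, and Prdx6 works with a single catalytic cysteine and is recharged mainly by glutathione. Thioredoxin opens the disulfides through its own pair of cysteines, and thioredoxin reductase, a selenoprotein, restores thioredoxin with electrons from NADPH. Prdx1 and Prdx2 act mainly in the cytosol, Prdx3 in mitochondria and Prdx4 in the endoplasmic reticulum. Txn1 and Txnrd1 serve the cytosol and nucleus, and Txn2 and Txnrd2 serve mitochondria. A fully grown oocyte makes almost no new mRNA until the early embryo, so its mRNA is a store laid down during growth.

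The codons of the catalytic residues are shown because they set the peroxiredoxins, the thioredoxins and the reductases apart. They do not show the cysteine that pairs with the peroxide-reacting one, so they do not place Prdx1 to Prdx6 in the classes above. Each window below is coding sequence of a principal transcript in the GENCODE annotation of GRCm38, with the codon of the peroxide-reacting cysteine in capitals for the peroxiredoxins.
Prdx1: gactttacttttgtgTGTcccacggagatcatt
Prdx2: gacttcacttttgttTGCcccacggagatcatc
Prdx3: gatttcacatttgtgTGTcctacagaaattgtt
Prdx4: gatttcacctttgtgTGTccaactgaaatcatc
Prdx5: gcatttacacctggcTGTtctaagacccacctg
Prdx6: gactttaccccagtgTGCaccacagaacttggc
The next pair shows the thioredoxins, with capitals on both cysteine codons of the redox motif.
Txn1: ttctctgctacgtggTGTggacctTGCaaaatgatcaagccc
Txn2: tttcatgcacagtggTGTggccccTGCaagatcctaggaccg
The last pair is the end of the reductase coding sequence, with capitals on the TGA codon that is read as selenocysteine, ahead of the ordinary stop codon.
Txnrd1: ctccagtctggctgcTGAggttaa
Txnrd2: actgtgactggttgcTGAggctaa
Aligned over the whole coding sequence, Prdx1 and Prdx2 were the most alike pair, with 69.5% identical positions, against 37.8% for Txn1 and Txn2 and 56.4% for Txnrd1 and Txnrd2. The longest exact run that any pair within a family shared was 23 bases, between Prdx2 and Prdx4.

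Gene counts per pool ranged from 8409491 to 13793598 in HFD and from 8556396 to 10477316 in CD. The 10 oocyte marker genes summed to 18346 to 34248 CPM (read counts scaled to a common library size, by edgeR's trimmed mean of M-values) in HFD and 19190 to 25993 CPM in CD. All 6 hemoglobin genes of the red blood cell list had 0 counts in every pool. The 20 cumulus and granulosa markers summed to 116 to 1819 CPM in HFD and 133 to 1356 CPM in CD, most of it Serpine2. Of that list, Ptx3, Amh, Amhr2 and Slc38a3 were at 0 in every pool. The 10 oviduct epithelium markers summed to 7.55 to 110 CPM in HFD and 14.1 to 216 CPM in CD, the 11 red blood cell genes found to 0.97 to 4.05 CPM in HFD and 0.50 to 2.31 CPM in CD, and the 7 immune genes to 2.49 to 9.39 CPM in HFD and 2.19 to 8.46 CPM in CD. No sum passed the test between diets, with p from 0.113 to 0.877 over 5 two-sided exact permutation tests. Counts in HFD pools 1, 2, 4 and 6 were all even numbers, so raw counts printed for them may be doubled, while CPM, a ratio within a pool, would not be. HFD pool 3 had 14755 genes detected, against 12229 to 12772 in the other HFD pools and 12344 to 13052 in CD. Mos, the kinase that holds the mature egg in metaphase, was at 9.40 CPM in HFD pool 1, 4.05 in HFD pool 2, 3.84 in CD pool 2 and 3.99 in CD pool 4, and at 146 CPM or more in the other 8 pools. These pools are named wherever a member moved with them.

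No member differed between diets at an adjusted p under 0.05 in edgeR's quasi-likelihood test with Benjamini-Hochberg adjustment over 9935 genes, and neither did any other gene (background 0.0%). The same fit gave 1332 genes an unadjusted p under 0.05 with a higher level in HFD (13.4%) and 883 with a lower one (8.89%). Scaling by total counts turned that balance, with 1262 genes lower and 1079 higher in HFD. By its own test, DESeq2 called 489 genes higher (4.92%) and 280 lower (2.82%), and limma-voom with sample weights called 35 (0.352%). Of the 8 members that passed the filter on low counts, 4 (Prdx1, Prdx3, Prdx5 and Txn1) had an unadjusted p under 0.05, all with a higher level in HFD. Without HFD pool 3, only Prdx1 kept one in edgeR (0.00135), with 0.145 for Prdx3, 0.124 for Prdx5 and 0.0905 for Txn1. With the trend of fold change with transcript length removed, Prdx1 (0.0218) and Prdx3 (0.0321) kept one in edgeR, while Prdx5 (0.0683) and Txn1 (0.448) did not. Over all pools, the median log2 fold change, HFD over CD, of the 8 was 0.72, against 0.04 over all tested genes, which are not matched for length. In the shortest length class, which holds Prdx2, Prdx3, Prdx5 and Txn1, the median of all genes was 0.76. Prdx1 was the only member called by DESeq2, and limma-voom called none. The HFD and CD pools overlapped for all 10 members, while 243 of the tested genes had no overlap (2.45%).

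**Figure D1:**
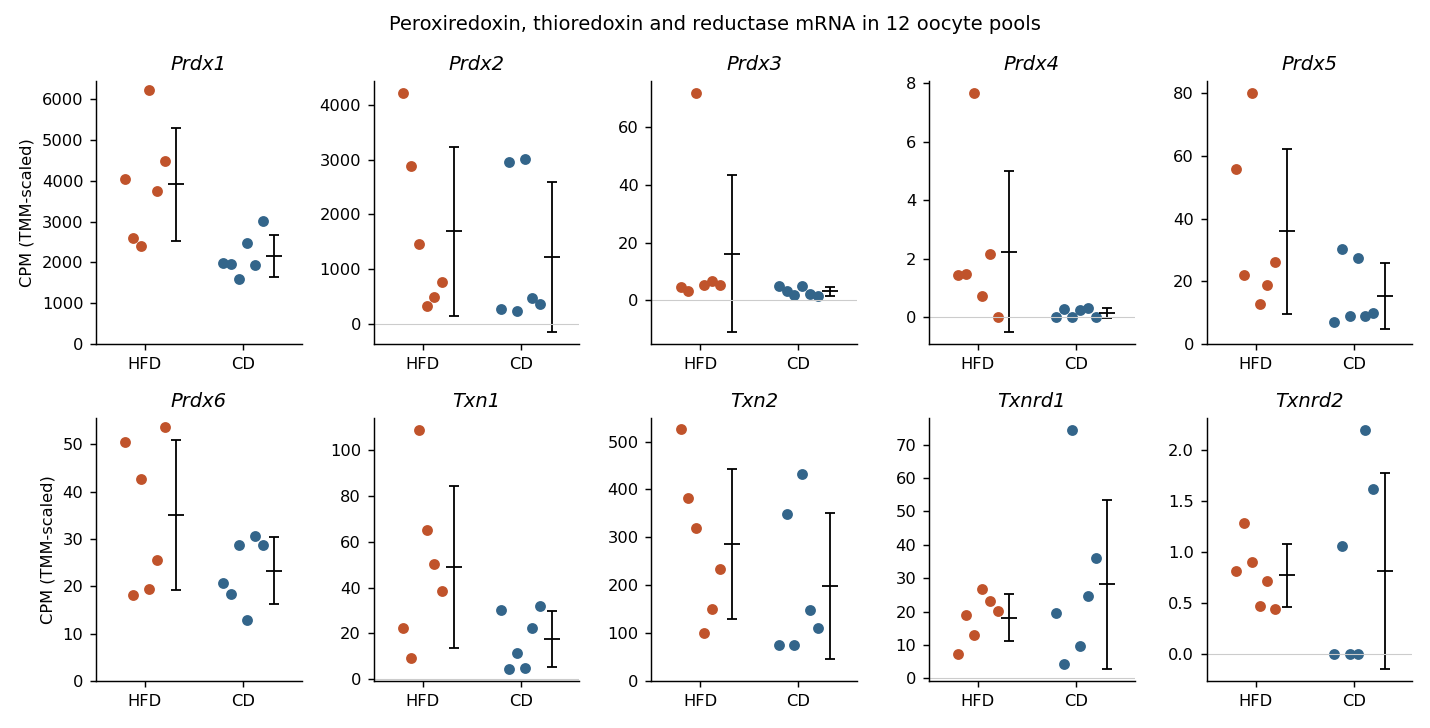
CPM of the 10 members in each oocyte pool, with 6 HFD pools left and 6 CD pools right in every panel; the bar is the mean and SD, and each panel has its own linear axis. All 6 HFD pools of Prdx1 lie above the CD mean of 2156 CPM, the highest Prdx3 point is HFD pool 3 at 72.0 CPM, and Prdx2 falls into high and low pools on both diets.

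Prdx1, which clears hydrogen peroxide in the cytosol, had the highest mean level per kilobase of the members. It and Prdx3 were the members with every HFD pool above the CD mean. In HFD pools 1 to 6 it measured 4046, 2593, 2408, 6206, 3742 and 4472 CPM, against 1987, 1956, 1586, 2473, 1926 and 3008 CPM in CD pools 1 to 6. Of the 6 HFD pools, 4 stood above every CD pool, with HFD pool 4 highest and CD pool 3 lowest. In a pool, a change in all 4 oocytes and a larger change in some of them cannot be told apart. Prdx1 averaged 3911 ± 1388 CPM in HFD and 2156 ± 505 CPM in CD (SD, n = 6 each). The log2 fold change was 0.86 ± 0.27 (SE), with an adjusted p of 0.105 in edgeR, 0.0427 in DESeq2 and 0.0675 in limma-voom. Leaving out any 1 pool kept it between 0.68 and 0.97, and the 8 pools with Mos at 146 CPM or more gave 0.99 ± 0.37. In the 8 pools that hold odd counts it was 0.46 ± 0.35 (adjusted p = 0.56 in edgeR), and all 4 pools left out there are HFD pools.

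Prdx1 lies on chromosome 4 at 116685544 to 116700822, plus strand, in the GENCODE annotation of GRCm38. The RefSeq table of GRCm38.p6 places the lncRNA AV051173 at 116684962 to 116686022, so the spans share 479 bases at the start of Prdx1. AV051173 had the pattern closest to Prdx1 of all tested genes, with a root mean square difference of 0.096 on the log2 scale over 12 pools, against a spread of 0.563 for Prdx1 about its own mean. It held 388 to 1142 counts where Prdx1 held 16783 to 52510. The library chemistry does not mark strand, so reads from the shared bases cannot be told apart by gene. The next closest was Ppih, a cyclophilin of the spliceosome, at 0.212. Of the 50-base runs in Prdx1 transcripts, 7.5% also occur in a processed pseudogene, Gm21399, and smaller shares in Gm7204 and Gm15974. The counter set aside reads that map to several places, so some Prdx1 reads from such runs may be missing from its count.

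The 300 bases around the start of Prdx1 are shown because the promoter holds the core of an antioxidant response element, the sequence through which the factor Nrf2 acts on many genes of this pathway. The window comes from RefSeq at chr4:116685349-116685648, plus strand, GRCm38.p6, with the match in capitals.
Prdx1: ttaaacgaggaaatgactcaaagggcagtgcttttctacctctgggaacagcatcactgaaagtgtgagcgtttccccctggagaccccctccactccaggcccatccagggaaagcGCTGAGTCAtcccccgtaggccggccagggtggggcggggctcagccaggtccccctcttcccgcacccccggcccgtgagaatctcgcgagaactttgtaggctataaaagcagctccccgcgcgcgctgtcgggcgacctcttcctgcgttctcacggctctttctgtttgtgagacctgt
The core was searched as TGACNNNGC on both strands, and the match here is on the minus strand, beginning 133 bases before the start site. It overlaps the letters TGAGTCA of an AP-1 site, which occur in 5.2% of promoters searched. Of 32851 promoters of the same length, 12.39% hold the core. Among 11 promoters listed for 9 of the members, 2 hold it, the other belonging to Txnrd1. GC boxes (GGGCGG) occur in 9 of the 11 and in 35.66% of all promoters. Prdx6 had no entry. These are matches of letters and were not tested as sites.

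Prdx2, the other main cytosolic peroxiredoxin and best known from red blood cells, differed far more between pools than between diets. In HFD pools 1 to 6 it measured 4216, 2881, 1448, 326, 493 and 770 CPM, against 272, 2959, 228, 3006, 462 and 363 CPM in CD pools 1 to 6. HFD pools 1 and 2 and CD pools 2 and 4, the pools low in Mos, held the 4 highest values, followed by HFD pool 3. The means were 1689 ± 1549 CPM in HFD and 1215 ± 1371 CPM in CD (SD, n = 6 each), and the log2 fold change was 0.48 ± 0.77 with an adjusted p of 0.752 in edgeR. The estimate was -0.04 without HFD pool 1 and -0.42 in the pools with odd counts, and 1.22 ± 0.46 (adjusted p = 0.147) without the 4 pools low in Mos. Gdf9, an oocyte growth factor, was at 543 to 616 CPM in the same 4 pools and at 4601 CPM or more in the other 8. Serpine2, most of the cumulus marker sum, was at 71.0 to 125 CPM in them and at 303 CPM or more in the other 8. The sum was thus lowest in these pools through Serpine2, and the rest of the list did not split the pools in this way. The part of these pools in the Prdx2 pattern was not tested. U2af1l4, a splicing factor gene, and Hmgn1, which codes for a nucleosome-binding protein, had the closest patterns, at 0.274 and 0.293, against a spread of 1.491 for Prdx2.

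Prdx2 lies on chromosome 8 at 84969587 to 84974834, plus strand, and overlaps Rnaseh2a and Junb on the other strand. Junb had 0 counts in 11 pools and 22 in CD pool 1, and Rnaseh2a had at most 272 counts, in HFD pool 3. Prdx2 counts ran from 2408 to 52008, above both neighbours in every pool. The processed pseudogene Tdpx-ps1 shares 9.6% of the 50-base runs of Prdx2.

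The mitochondrial Prdx3 had the largest fitted difference of the tested members, and most of it came from a single pool. It measured 4.54, 3.31, 72.0, 5.44, 6.65 and 5.30 CPM in HFD pools 1 to 6, against 5.06, 3.27, 1.70, 4.98, 2.31 and 1.33 CPM in CD pools 1 to 6. HFD pool 3 stood far above every other pool, the next highest being 6.65 CPM, and the remaining HFD pools overlapped the CD pools. Prdx3 lies on chromosome 19 at 60864051 to 60874556, minus strand. Over all pools it came to a log2 fold change of 2.38 ± 0.79, with an adjusted p of 0.115 in edgeR, and 0.68 ± 0.44 (adjusted p = 0.451) without HFD pool 3. DESeq2 set no adjusted p. In the pools with odd counts, where HFD pool 3 is 1 of only 2 HFD pools, it was 3.56 ± 0.73 (adjusted p = 0.0201). Chmp2a, of the membrane-remodelling ESCRT machinery, and Ndufb11, a subunit of respiratory complex I, followed Prdx3 most closely, at 0.368 and 0.48, against a spread of 1.338 for Prdx3. That spread was mostly HFD pool 3, at 3.89 above the Prdx3 mean on the log2 scale, against -1.67 to 0.49 in the other pools. Whether the likeness goes beyond this pool was not tested. HFD pool 3 also held Zp3, a zona pellucida gene, at 3942 CPM, against 11.97 to 195 CPM in the other HFD pools and 10.96 to 116 CPM in CD.

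Prdx4, which works in the endoplasmic reticulum, was close to the detection limit and did not pass the filter. The gene lies on chromosome X at 155323918 to 155340754, minus strand. Its raw counts were 18, 16, 77, 6, 21 and 0 in HFD pools 1 to 6, against 0, 3, 0, 2, 3 and 0 in CD pools 1 to 6. It summed to 138 counts in HFD, or 118 with the counts of the all-even pools 1, 2, 4 and 6 halved, and 8 in CD, and 5 of 6 HFD pools lay above every CD pool, with HFD pool 6 at 0. A count of 0 allows up to 3 counts, which is 0.271 to 0.331 CPM in the 4 pools at 0, or 0.662 CPM in HFD pool 6 if its reads were counted in duplicate, which was not tested. With no filter, edgeR gave it an adjusted p of 0.149 over 17135 genes. In the pools with odd counts, HFD pools 3 and 5 are the only HFD pools, and Prdx4 passed the filter only through them. Its adjusted p of 0.0373 in that edgeR fit is therefore no support for a difference between diets.

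Prdx5, found in mitochondria, peroxisomes and cytosol, had a higher fitted level in HFD, with overlapping pools. It measured 55.8, 22.1, 80.1, 12.8, 19.03 and 26.3 CPM in HFD pools 1 to 6, against 7.14, 30.4, 9.07, 27.5, 8.91 and 9.98 CPM in CD pools 1 to 6. In HFD, pools 1 and 3 were highest, and in CD, pools 2 and 4 were. The log2 fold change was 1.22 ± 0.52 (adjusted p = 0.194 in edgeR), 0.80 without HFD pool 3 and 2.01 ± 0.57 (adjusted p = 0.128) without the 4 pools low in Mos. Prdx5 lies on chromosome 19 at 6906697 to 6910106, minus strand, and its start overlaps Trmt112 on the other strand. Trmt112, the activator of several methyltransferases, held 167 to 966 CPM and shares 29.7% of the 50-base runs of Prdx5. Reads from these runs cannot be told apart by gene, and whether they were counted for Prdx5 or set aside was not tested. Nme6, a nucleoside diphosphate kinase gene, and Igsf23 had the closest patterns, at 0.248 and 0.282.

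Prdx6, which also has a phospholipase activity, measured 50.4, 18.2, 42.8, 19.4, 25.6 and 53.6 CPM in HFD pools 1 to 6, against 20.6, 18.5, 28.7, 12.8, 30.6 and 28.8 CPM in CD pools 1 to 6. HFD pools 1, 3 and 6 stood above every CD pool and the other 3 HFD pools lay among them. Between diets it differed by a log2 fold change of 0.58 ± 0.36, with an adjusted p of 0.351 in edgeR, a difference within the spread between pools. It moved little with HFD pool 3 left out, to 0.50. Prdx6 lies on chromosome 1 at 161240112 to 161251219, minus strand. Its nearest patterns, Tfec, a transcription factor gene, and 2810001G20Rik, lay at 0.325 and 0.427, and Prdx6b, a related gene on chromosome 2 with 0.3% of the 50-base runs of Prdx6, had at most 2 counts in any pool.

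Txn1, the cytosolic thioredoxin, was lowest within each diet in the pools where Prdx2 was highest, and its fitted level was higher in HFD. It measured 22.2, 9.02, 109, 65.0, 50.4 and 38.6 CPM in HFD pools 1 to 6, against 30.2, 4.42, 11.3, 4.98, 22.2 and 31.95 CPM in CD pools 1 to 6. The lowest pools of each diet were those low in Mos, HFD pools 1 and 2 and CD pools 2 and 4, and HFD pool 3 was highest. HFD pool 1, at 22.2 CPM, was not low against the CD pools. Txn1 averaged 49.1 ± 35.5 CPM in HFD and 17.5 ± 12.3 CPM in CD (SD, n = 6 each). The log2 fold change was 1.48 ± 0.61 (adjusted p = 0.178 in edgeR), and it was again 1.48 without the 4 pools low in Mos, with an SE of 0.45 and an adjusted p of 0.13. It was 1.07 without HFD pool 3 and 0.45 ± 0.58 once the trend of fold change with transcript length was removed. Txn1 lies on chromosome 4 at 57943373 to 57956411, minus strand. The closest patterns were Utp11l, a ribosome assembly gene, and Rpl17, a ribosomal protein gene, at 0.271 and 0.342.

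Txn2, the mitochondrial thioredoxin, had a higher level per kilobase than Txn1 in 11 of 12 pools and was high where Prdx2 was high. It measured 526, 382, 318, 101, 151 and 233 CPM in HFD pools 1 to 6, against 75.4, 348, 74.8, 431, 149 and 110 CPM in CD pools 1 to 6. The highest 5 pools were the 5 that were highest in Prdx2. For Txn2 the log2 fold change was 0.53 ± 0.50 with an adjusted p of 0.573 in edgeR, and 0.99 ± 0.41 (adjusted p = 0.168) without the pools low in Mos. Centred on their means, Txn2 and Prdx2 differed by a root mean square of 0.581, Txn2 and Prdx5 by 0.557, and Prdx2 and Txn1 by 2.437, the largest distance between any tested members. Txn2 lies on chromosome 15 at 77915047 to 77929006, minus strand. Xlr3a and Taf12, a subunit of the general transcription factor TFIID, were the nearest genes to Txn2, at 0.15 and 0.188. These likenesses are over the same 12 libraries and share their depth and scaling.

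**Figure D2:**
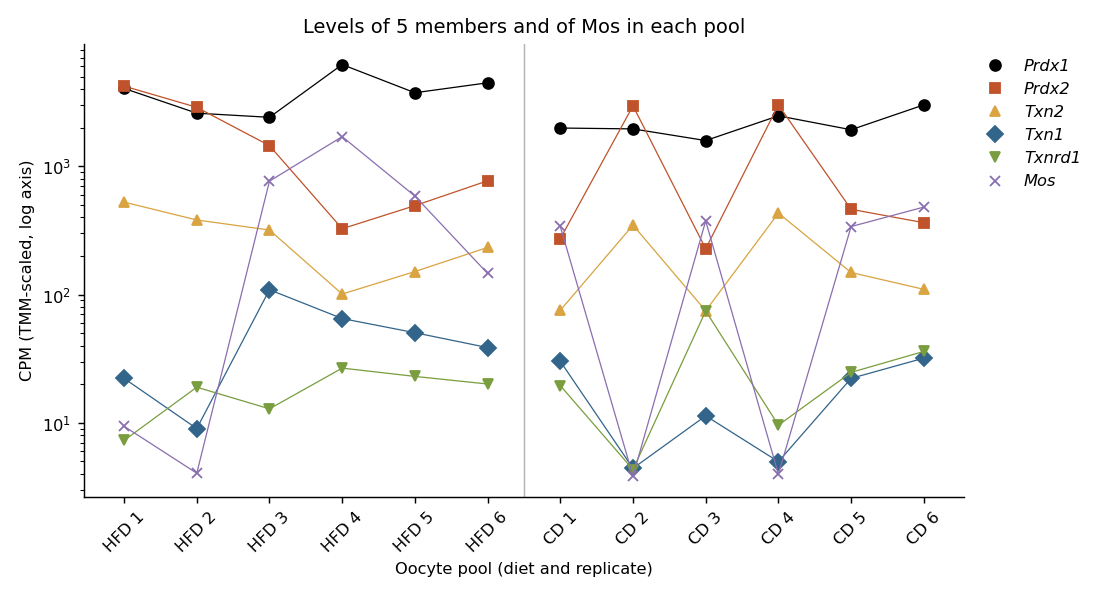
CPM on a log axis in each of the 12 oocyte pools, HFD pools left of CD pools, for 5 members and for Mos; lines join pools only to guide the eye, since replicates have no order. Prdx2 and Txn2 are high in HFD pools 1 and 2 and CD pools 2 and 4, where Mos is at 3.84 to 9.40 CPM and Txn1 is lowest within its diet, while Prdx1 stays between 1586 and 6206 CPM throughout.

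Txnrd1, the cytosolic reductase, was the only tested member with a lower fitted level in HFD, and the difference was within the spread between pools. It measured 7.30, 18.96, 12.9, 26.7, 23.0 and 20.1 CPM in HFD pools 1 to 6, against 19.5, 4.32, 74.5, 9.59, 24.7 and 36.0 CPM in CD pools 1 to 6. All 6 HFD pools lay below the CD mean, which CD pool 3 raised, and the medians were 19.5 CPM in HFD and 22.1 CPM in CD. For Txnrd1 the log2 fold change was -0.63 ± 0.56 (adjusted p = 0.534 in edgeR) and came to -0.08 without CD pool 3. Its nearest patterns were Arhgap12 and the sperm adhesion gene Spam1, at 0.479 and 0.483, looser than for most other members. Txnrd2, the mitochondrial reductase, was barely detected, with 10, 14, 9, 4, 7 and 4 counts in HFD pools 1 to 6, against 0, 11, 0, 0, 21 and 17 counts in CD pools 1 to 6. Txnrd1 lies on chromosome 10 at 82833951 to 82897712 and Txnrd2 on chromosome 16 at 18426384 to 18479073, both on the plus strand. Eid3, with 0 counts, lies inside Txnrd1 on the same strand. Txnrd2 did not pass the filter, and without a filter its adjusted p was 0.962 in edgeR.

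The end of the Txnrd1 transcript is shown because oocytes store many mRNAs under a cytoplasmic polyadenylation element, read as UUUUAU in the RNA, which also controls Mos. The letters TTTTAT were searched in the last 100 bases of principal transcripts. Txnrd1 was the only one of the 10 members to hold them there, against 16.1% of 9123 tested genes with such a transcript.
Txnrd1: aattccatgtatTTTTATtacaatttttct
Capitals mark the match. Txnrd1 was low in CD pools 2 and 4 and in HFD pool 1, where Mos was low, but not in HFD pool 2, and it was at 12.9 CPM in HFD pool 3, where Mos was at 766 CPM. Txnrd1 and Mos thus did not move together in every pool, and whether the element bears on this was not tested.

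Per kilobase of longest transcript, Prdx1 averaged 1705 ± 605 CPM in HFD and 940 ± 220 CPM in CD, and Prdx2 1048 ± 961 in HFD and 754 ± 851 in CD (SD, n = 6 each). Then came, by the mean over 12 pools, Txn2 at 118, Txn1 at 31.7, Prdx5 at 14.1, Prdx6 at 11.4, Prdx3 at 6.53, Txnrd1 at 6.39, Prdx4 at 1.16 and Txnrd2 at 0.276 CPM per kilobase. Of the 9 neighbouring pairs, Prdx2 above Txn2 was the only one in the same order in all 12 pools. Prdx1 was above Prdx2 in 8 of 12 pools, and the 4 exceptions were the pools low in Mos. Together Prdx1 and Prdx2 made up 83.7% to 95.5% of the summed level per kilobase of the 10 members in HFD pools and 90.4% to 93.2% in CD pools. Each reductase stood below the thioredoxin of its own compartment in the order, and Txnrd1 was below Txn1 in 11 of 12 pools. With the mean transcript length in place of the longest, Txnrd1 and Prdx3 changed places and 3 of the 9 pairs kept their order in all 12 pools. Prdx1 was then above Prdx2 in 10 of 12 pools, all 6 HFD pools among them, so the match with the pools low in Mos depends on the length used.

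**Figure D3:**
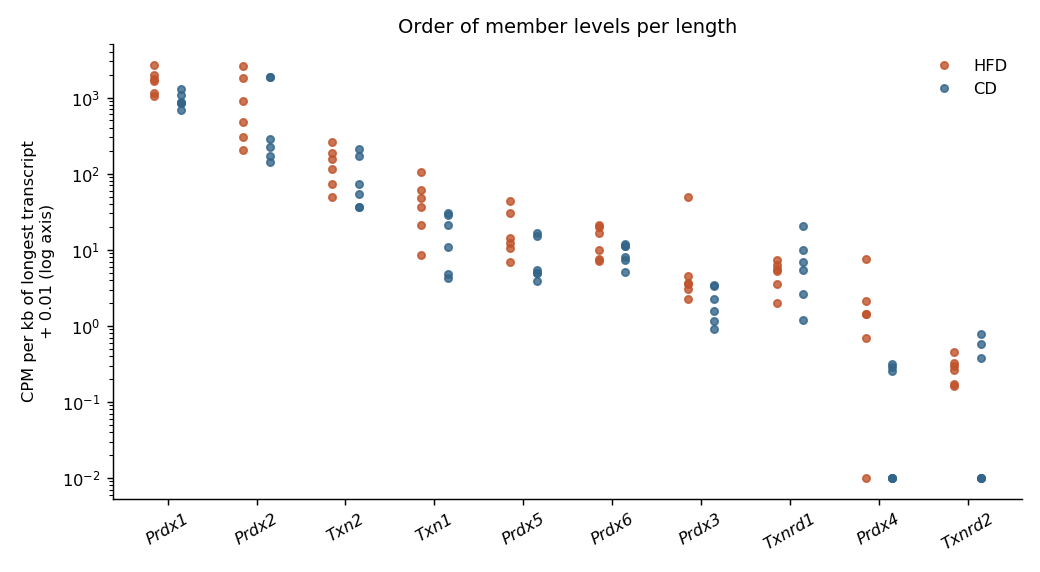
CPM per kilobase of longest transcript, plus 0.01, on a log axis, for each member in order of its mean, with HFD pools left of CD pools. Prdx1 and Prdx2 stand above the rest, and the points at the bottom for Prdx4 and Txnrd2 are pools with 0 counts.

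The diet difference moved with transcript length, and the members differ in length. With the tested genes in 5 equal classes of transcript length, the median log2 fold change was 0.76 in the shortest class and 0.10, -0.12, -0.19 and -0.24 in the next classes up. Prdx2, Prdx3, Prdx5 and Txn1 belong to the shortest class, Prdx1, Prdx6 and Txn2 to the next, and Txnrd1 to the middle one. With the length trend removed, the log2 fold changes were 0.76 for Prdx1, 0.15 for Prdx2, 1.56 for Prdx3, 0.86 for Prdx5, 0.52 for Prdx6, 0.45 for Txn1, 0.36 for Txn2 and -0.46 for Txnrd1. Prdx1 and Prdx6 kept the largest part of their values, and Txn1 and Prdx2 the smallest. With HFD pool 3 also left out, the values were 0.90 for Prdx1, 0.24 for Prdx2, 0.31 for Prdx3 and 0.58 for Prdx5. They were 0.50 for Prdx6, 0.34 for Txn1, 0.38 for Txn2 and -0.36 for Txnrd1 in that fit. The share of reads that the counter set aside as mapping to several places was 26.8% to 35.7% in HFD and 18.6% to 26.5% in CD, and its part in these results was not tested.

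**Figure D4:**
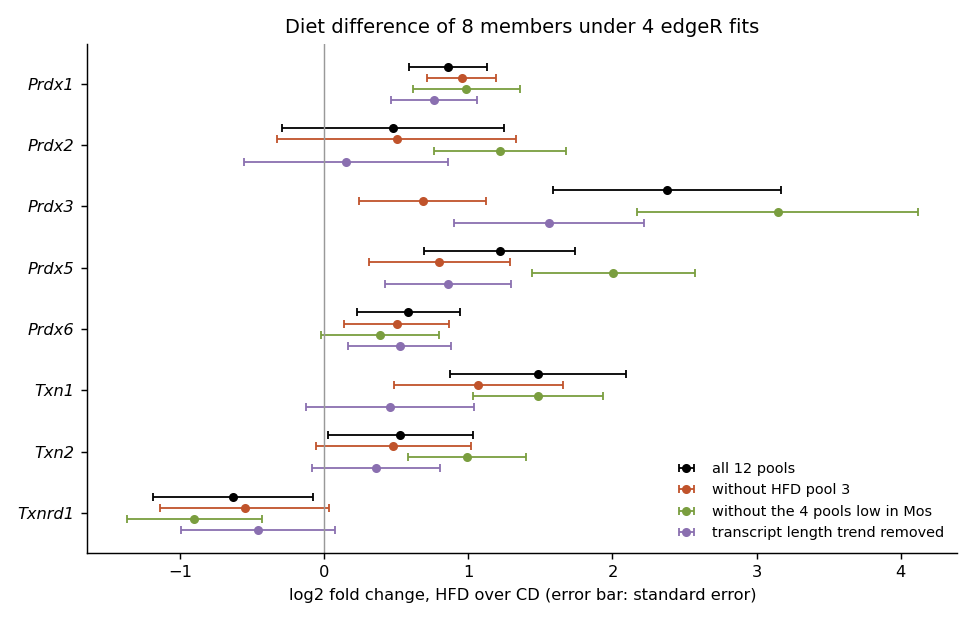
Log2 fold change, HFD over CD, with its standard error, for the 8 tested members under 4 edgeR fits: all 12 pools, without HFD pool 3, without the 4 pools low in Mos, and with the transcript length trend removed. Prdx1 stays between 0.76 and 0.99 in all 4, Prdx3 ranges between 0.68 and 3.15, and Txnrd1 is below 0 in each.

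Genes listed as working with the members were counted in 6 lists, beside shares of 13.4% higher and 8.89% lower over all tested genes. Of 24 genes listed as partners of the cycle, 18 were tested, with a median log2 fold change of 0.20. Among these, 4 had an unadjusted p under 0.05 with a higher level in HFD and 1 with a lower level. The list takes in genes of thioredoxin-like name, such as Txnl4a and Txndc9, whose part in the cycle was not tested. The median ran from -0.05 without HFD pool 1 to 0.41 without CD pool 2. The 4 were Txndc9 (2.22), Txnl4a (1.92), Sesn3 (1.35) and Txndc17 (0.94), and the 1 was Txndc11 (-1.43), all named after their values were seen. Sesn3, a sestrin, measured 11.8, 5.89, 19.8, 3.78, 8.39 and 8.61 CPM in HFD pools 1 to 6, against 4.25, 3.36, 3.88, 4.24, 3.46 and 3.71 CPM in CD pools 1 to 6, so that 5 of 6 HFD pools lay above every CD pool. Its adjusted p was 0.0997 in edgeR and 0.0191 in DESeq2. DESeq2 also called Txndc9 (adjusted p = 0.0172), of which HFD pool 3 held 1022 CPM against 21.6 to 224 CPM elsewhere, and Txndc17 (adjusted p = 0.0358). These 3 calls among 18 tested partners stand beside 489 of all 9935 tested genes that DESeq2 called higher (4.92%). Srxn1, the sulfiredoxin that repairs overoxidized peroxiredoxins, was counted only in HFD pool 2, with 6 counts. Txnip, the inhibitor of thioredoxin, had a log2 fold change of -0.40 ± 0.38 (adjusted p = 0.574), and Txnrd3, the reductase best known from testis, -0.19 ± 0.41 (adjusted p = 0.824), both in edgeR.

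Among the proteins that thioredoxin reduces or binds, 9 of 11 genes were tested, with a median of -0.59; 1 had an unadjusted p under 0.05 with a higher level and 3 with a lower level in HFD. Scaling by total counts gave 0 higher and 6 lower, on a scale where 1262 of all 9935 tested genes were lower and 1079 higher. Removing the length trend gave 0 higher and 2 lower, and so did the replicate block. Rrm1, the large subunit of ribonucleotide reductase, which takes electrons from thioredoxin, measured 17.2, 30.01, 15.05, 25.3, 43.7 and 35.1 CPM in HFD pools 1 to 6, against 49.3, 44.1, 99.1, 66.6, 63.8 and 42.0 CPM in CD pools 1 to 6. HFD pool 5 was the only HFD pool to reach the CD range. The log2 fold change of Rrm1 was -1.13 ± 0.33, with an adjusted p of 0.0968 in edgeR and 0.0198 in DESeq2. It was the 1 client of 9 that DESeq2 called, beside 280 of all 9935 tested genes called lower (2.82%). Msrb3, a methionine sulfoxide reductase, was at -1.05 ± 0.37 (adjusted p = 0.126 in edgeR), with all 6 HFD pools below every CD pool. The gap was narrow, from 31.1 CPM in the highest HFD pool to 32.6 CPM in the lowest CD pool. Of all 9935 tested genes, 243 had no overlap (2.45%), and Msrb3 was named for its small p.

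In the genes for oxidative folding in the endoplasmic reticulum, 9 of 14 were tested and none had an unadjusted p under 0.05, with a median of 0.11. Leaving out 1 pool turned that median, most with HFD pool 3 (-0.39), HFD pool 4 (-0.35) or HFD pool 2 (-0.34). Erp44 was at 0.88 ± 0.43 and Pdia5 at -0.53 ± 0.31. For the synthesis of selenoproteins, 8 of 9 were tested, with a median of 0.02 (-0.07 to 0.14 with any 1 pool left out) and 1 with an unadjusted p under 0.05, Pstk, which makes the precursor of selenocysteine on its tRNA, at 1.35 ± 0.61 (adjusted p = 0.214 in edgeR). Sephs2, which makes the selenium donor, was at -0.51 ± 0.32. Of the regulators and targets of Nrf2, 8 of 11 were tested, with a median of -0.37 and 2 with an unadjusted p under 0.05, both lower in HFD. They were Keap1, the inhibitor of Nrf2, at -1.59 ± 0.69 (adjusted p = 0.197) and Gclc, of glutathione synthesis, at -1.42 ± 0.66 (adjusted p = 0.224). Keap1 was low throughout, at 0.162 to 3.13 CPM in HFD and 1.89 to 12.1 CPM in CD. Of the genes that supply NADPH, 8 of 11 were tested, with a median of -0.37 and 1 with an unadjusted p under 0.05, Nadk, the cytosolic NAD kinase, at -1.29 ± 0.50 (adjusted p = 0.159). Idh1, the cytosolic isocitrate dehydrogenase, was at -0.66 ± 0.32 (adjusted p = 0.237), so its difference did not pass the test.

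**Figure D5:**
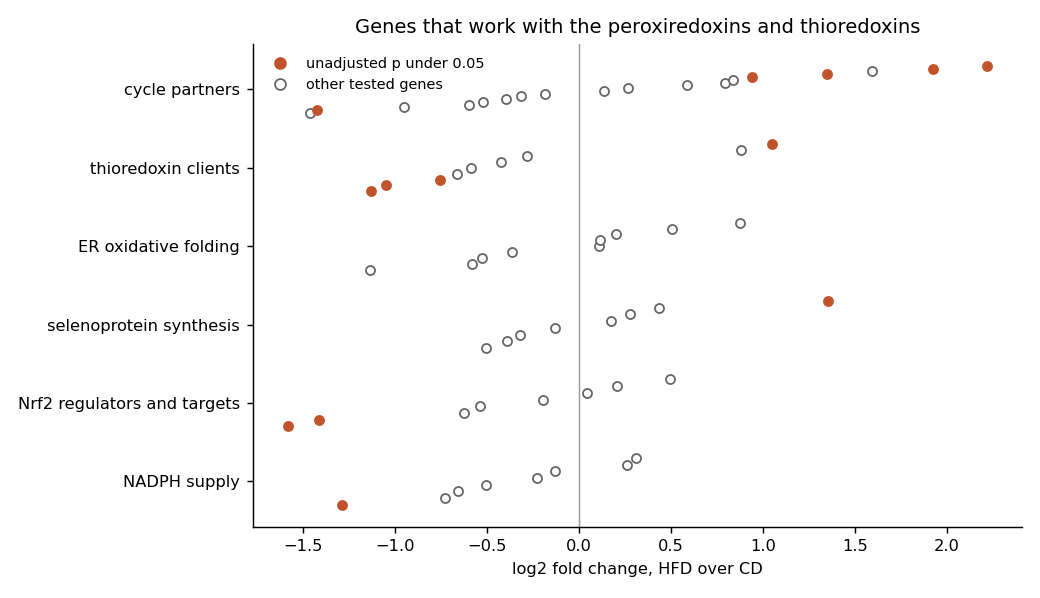
Log2 fold change, HFD over CD, of each tested gene in 6 lists of genes listed as working with the members. Filled points have an unadjusted p under 0.05 in edgeR and open points do not. No point passed the adjusted threshold; the cycle partners spread on both sides of 0, and 7 of 9 thioredoxin clients lie below 0.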

How the data were processed

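Full-length cDNA from pools of 4 oocytes was made with the SMART-Seq v4 kit and sequenced after Nextera XT tagmentation, per the labels' protocols. The authors deposited raw read counts in whole numbers by gene symbol in 1 table of 24062 genes and 12 libraries, whose 5 tally lines of unassigned reads (62.3% to 72.9% of all reads) were kept out of library sizes and tests. STAR, HTSeq 1.0.0, DESeq2 1.0.19 and mm10 are named in the submitters' processing notes, while the annotation is not given in the sources here. Gene counts per library, 8409491 to 13793598, set the counting error, which floors cover alone. The feed's product code is the same in both diet labels, so groups follow the diet names.

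The main test was edgeR 4.0.16 (quasi-likelihood, robust, trimmed-mean scaling, filterByExpr) on all 12 libraries with Benjamini-Hochberg adjustment and a threshold of 0.05. The SE is the absolute log2 fold change over the square root of F. DESeq2 1.42.0 and limma 3.58.1 (voom), other scalings, no filter, a replicate block, leaving out each library, halved even counts, libraries with odd counts and a lowess removal of the transcript length trend were alternatives. Leaving out the 4 libraries with under 10 CPM of Mos, and HFD replicate 3 together with the length trend, were added after the data were seen. Lengths came from GENCODE transcripts, matched for 95.5% of tested genes. Replicate numbers were checked as pairs and did not pair the pools. Marker sums were compared with an exact permutation test (SciPy 1.17.1). The fitting script was tested on simulated data.

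Besides the members, the text names Srxn1, Txnip and Txnrd3, up to 2 genes of smallest p in each other list, and for each tested member the 2 genes of closest centred log2 CPM (prior count 2). Other genes, among them 5 cycle partners with an unadjusted p under 0.05, were named after their values were seen. Members and lists were chosen with earlier results of these data known.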

Additional observations from a re-analysis of the deposited data

Results flagged for a closer look

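In 20 sets of 6 pools, each a member on 1 diet, 2 had a pool far from the others. The limit used flags about 1 set in 20 when values are independent and normally distributed. Sets of 1 diet share the same pools, and the CPM values were not checked for a normal spread, so that rate may not hold here. Prdx3 was at 72.0 CPM in HFD pool 3, against 3.31 to 6.65 CPM in the other 5 HFD pools, a gap of 0.951 of the whole range. Prdx4 was at 7.67 CPM in the same pool, against 0 to 2.15 CPM in the other 5, a gap of 0.72 of the range. Both come from the pool with the most genes detected, and without it the log2 fold change of Prdx3, HFD over CD, was 0.68 in place of 2.38.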

How the results depend on the processing

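The count of genes called was 0 in edgeR, 769 in DESeq2, 35 in limma-voom and 456 in the libraries with odd counts, and 0 without any single pool and in the other alternatives. Of 183 values with an adjusted p for the 8 tested members under alternatives, 179 kept their direction and side of the threshold; DESeq2 gave Prdx3 no adjusted p. Those that passed the threshold were Prdx1 in DESeq2 (0.86, adjusted p = 0.0427) and Prdx3 in the libraries with odd counts (3.56). Prdx2 turned to -0.42 in the libraries with odd counts and to -0.0377 without HFD replicate 1. Prdx4, which is not among the 8, passed the filter in the libraries with odd counts only through HFD pools, so its p there is no support. Without any single pool the values ran from 0.68 to 0.97 for Prdx1, -0.0377 to 0.97 for Prdx2, 0.68 to 2.58 for Prdx3, 0.80 to 1.52 for Prdx5, 0.40 to 0.71 for Prdx6, 1.07 to 1.71 for Txn1, 0.26 to 0.91 for Txn2 and -0.86 to -0.08 for Txnrd1. Partner genes with an unadjusted p under 0.05 numbered 6 higher and 7 lower in HFD over all pools, 3 to 7 higher and 4 to 8 lower without any single pool, 4 and 13 on total counts, and 2 and 3 with the replicate block. Neighbours in the same order in all 12 pools numbered 3 by mean transcript length, against 1 by the longest. The sums of oocyte and immune markers, HFD minus CD, turned to -736 and -0.23 CPM on total gene counts. Scaling by total counts moved the median of all genes from 0.04 to -0.06 and the genes with an unadjusted p under 0.05 to 1079 higher and 1262 lower. The correlations of deviations within a replicate number ran from -0.45 to 0.55, and the replicate block also called 0 genes, with 729 higher and 526 lower at an unadjusted p under 0.05, against 1332 and 883 without it; the member values with the block were 0.81 for Prdx1, 0.84 for Prdx2, 1.27 for Prdx3, 1.18 for Prdx5, 0.51 for Prdx6, 1.45 for Txn1, 0.72 for Txn2 and -0.24 for Txnrd1. The causes were not tested. Low counts limit Prdx4 and Txnrd2.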
